A study of Mus musculus with 20 samples.

Results

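A set of 10 genes of the Hippo pathway was followed over mouse pancreatic ductal adenocarcinomas of 3 genotypes. They are the co-activators Yap1 and Wwtr1 (which encodes TAZ), the transcription factors Tead1, Tead2, Tead3 and Tead4, the kinases Lats1 and Lats2, and the target genes Ankrd1 and Amotl2. The genes were chosen by symbol. All 10 were found among the 20636 genes of the deposited table, and all 10 passed the minimum level for testing, as 16648 genes did. In KPAT mice both Trp53 and Arf were floxed (Trp53fl/fl;Arf-fl/fl), in KAT mice Arf alone (Arf-fl/fl) and in KPT mice Trp53 alone (Trp53fl/fl). Every mouse of these groups also carried a Cre-activated red fluorescent reporter (Rosa26LSL-tdTomato/LSL-tdTomato) and Ptf1aCreER, a tamoxifen-dependent Cre, and the labels call the tumours acinar-derived. Tamoxifen was given at 5 mg on each of 3 days to mice 8 to 10 weeks old, which were then kept until morbid, so the age at collection is not fixed. Each group holds 5 tumours that are numbered separately. Library names in the labels carry numbers whose ranges do not overlap between the groups, lowest in KPT and highest in KPAT. What these numbers follow is not stated, so genotype and any such order cannot be told apart. Nothing else in the labels says more about the source of the tumours, so p-values measure the spread between these libraries. The genotype with neither suppressor gene floxed is not analysed here.

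In the Hippo pathway the kinases MST1 and MST2 (genes Stk4 and Stk3) activate LATS1 and LATS2, which phosphorylate YAP and TAZ and keep them out of the nucleus. Unphosphorylated YAP and TAZ enter the nucleus, bind TEAD proteins on DNA and switch on genes such as Ankrd1, Ccn1, Ccn2 and Amotl2, and Lats2 and Amotl2 feed back to restrain them. The pathway is thus governed largely by phosphorylation and localisation, which RNA levels do not measure. In the pancreas YAP is known from mouse models to promote the conversion of acinar into duct-like cells and the growth of pancreatic tumours.

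TEAD proteins bind the letters GGAATG, and the promoters of the co-activator and target genes that the results below turn on are printed to show these letters beside the measured genes. Each sequence is the 250 bases before the annotated start, 5′ to 3′ on the gene's strand, from RefSeq (GRCm38.p6), in lower case with GGAATG or its reverse complement CATTCC in capitals. The Ankrd1 promoter (chr19:36119845-36120094, minus strand) holds 2 matches, starting 210 and 123 bases before the start. The Amotl2 promoter (chr9:102717554-102717803, plus strand) holds 1 match, on the other strand, 65 bases before the start. The Ankrd1 and Amotl2 windows, placed by RefSeq starts, lie inside these genes as GENCODE draws them. The outer GENCODE coordinates are given with the levels of each gene. The Yap1 promoter (chr9:8004597-8004846, minus strand) holds 1 match, 141 bases before the start.
Ankrd1: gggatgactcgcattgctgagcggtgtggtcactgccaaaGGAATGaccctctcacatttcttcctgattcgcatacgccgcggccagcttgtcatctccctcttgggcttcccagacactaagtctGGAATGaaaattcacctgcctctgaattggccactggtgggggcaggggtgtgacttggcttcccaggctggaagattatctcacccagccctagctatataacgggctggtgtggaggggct
Amotl2: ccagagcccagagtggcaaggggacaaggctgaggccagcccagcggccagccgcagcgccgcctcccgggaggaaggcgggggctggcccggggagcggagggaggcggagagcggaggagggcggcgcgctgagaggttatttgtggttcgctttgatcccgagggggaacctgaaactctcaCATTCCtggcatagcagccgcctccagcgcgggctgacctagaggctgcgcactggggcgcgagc
Yap1: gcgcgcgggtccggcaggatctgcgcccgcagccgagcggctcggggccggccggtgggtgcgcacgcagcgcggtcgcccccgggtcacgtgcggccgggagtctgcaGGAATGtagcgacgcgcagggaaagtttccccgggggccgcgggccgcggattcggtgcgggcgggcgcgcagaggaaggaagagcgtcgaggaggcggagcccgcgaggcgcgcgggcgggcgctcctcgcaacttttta

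Promoters were matched for 8 of the 10 genes, 12 promoters in all, and not for Tead1 and Tead4. The letters GGAATG on either strand were present in 7 of these 12 promoters (58.3%), which belong to Yap1, Wwtr1, Tead3, Ankrd1 and Amotl2. The 2 Wwtr1 windows overlap and share 1 match. Among all 32851 promoters of the same length, 12.6% held the letters. Over a list of 22 YAP/TAZ target genes, to which Ankrd1, Amotl2 and Lats2 also belong, 6 of 17 matched promoters did (35.3%), among them that of Ccn1, 103 bases before its start. TGANTCA, the motif of AP-1, a factor that works beside TEAD at many enhancers, was in 0 of the 12 promoters of the 10 genes and in 6.75% of all promoters. These are matches of letters within a short window and not measured binding sites.

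The libraries held 14696138 to 26248484 reads in KPAT, 16704627 to 22124495 in KAT and 16622901 to 23039354 in KPT. Levels are given in deposited units, the reads of a gene divided by the authors' factor for the library. Trp53 was at 32.9 to 57.2 deposited units in KPAT tumours and 99.0 to 148 in KAT tumours, against 22.7 to 26.3 in KPT tumours. Cdkn2a, the gene that encodes Arf, was at 268 to 907 in KPAT and 150.0 to 690 in KAT tumours, against 216 to 335 in KPT tumours. Its level over the whole gene was thus not lower where Arf was floxed and does not check that label. Whole tumours were profiled, so the values mix cancer cells with stroma, and fewer cells of a type and less RNA per cell cannot be told apart. Summed over 12 fibroblast markers, the level was 5508 to 15140 in KPAT and 7010 to 10310 in KAT tumours, against 1051 to 4509 in KPT tumours, with no overlap with KPT. Over 12 epithelial markers it was 8042 to 10890 in KPAT and 7254 to 11990 in KAT tumours, against 10900 to 19060 in KPT tumours, so epithelial RNA was present in every tumour. Macrophage markers (10 genes) summed to 903 to 1881 in KPAT and 1614 to 3066 in KAT tumours, against 611 to 1073 in KPT tumours. Markers of endothelial cells (8 genes, 2 called higher in KPAT and 4 in KAT, each against KPT) summed to 241 to 409 in KPAT and 214 to 557 in KAT tumours, against 189 to 306 in KPT tumours. Those of mural cells, the muscle-like cells around vessels (9 genes, 1 and 5 called higher), summed to 249 to 615 in KPAT and 271 to 1109 in KAT tumours, against 142 to 507 in KPT tumours. Among all tested genes 9.13% were called higher in KPAT and 15.6% in KAT, each against KPT. Acinar markers varied most, over the 8 of 10 in the table, from 1.80 to 522 in KPAT and 14.2 to 882 in KAT tumours, against 26.2 to 182 in KPT tumours, and 0 of them were called. The part of these cell types in the results below was not tested.

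**Figure D1:**
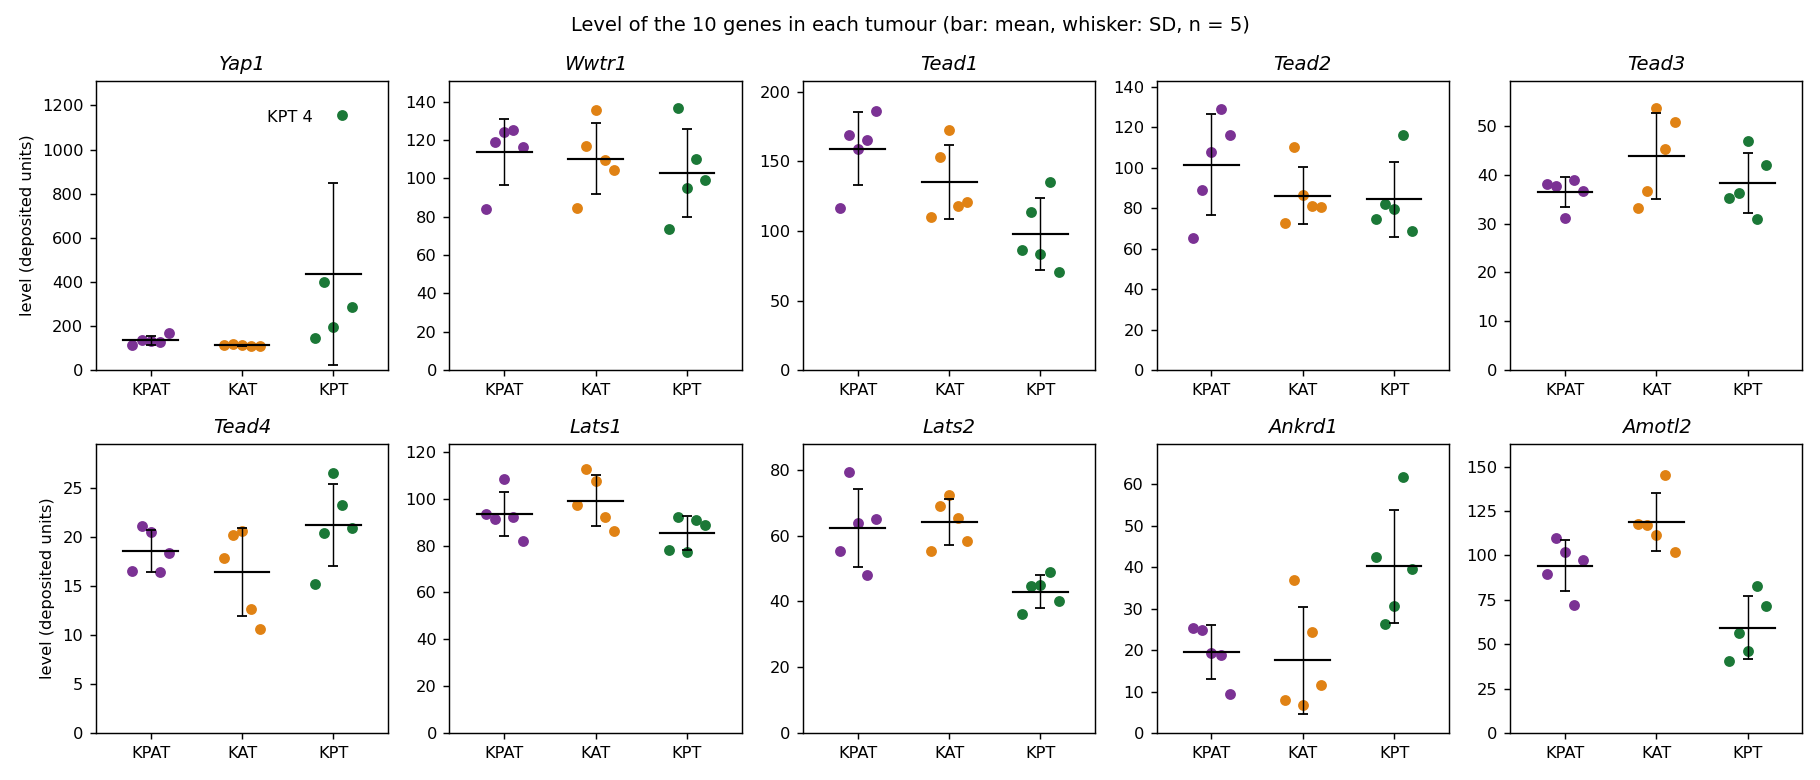
Level of each of the 10 genes (y axis, deposited units, from 0) in the KPAT, KAT and KPT tumours, with 1 dot per tumour, a bar at the mean and a whisker of 1 SD (n = 5). For Yap1 the KPAT and KAT tumours lie between 110.2 and 169.8, while the KPT tumours spread from 147 to 1157.

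Setting KPAT beside KPT addresses the effect of floxing Arf in tumours that are already Trp53fl/fl. Setting KPAT beside KAT addresses the effect of floxing Trp53 in Arf-fl/fl tumours, and KAT beside KPT contrasts the single floxed genes. The comparisons share tumours, so their fold changes are not independent. Each also contrasts ranges of library numbers that do not overlap. What those numbers follow cannot be told apart from the effect of a floxed gene. In KPAT against KPT, Tead1, Lats2 and Amotl2 were higher and Yap1 lower, so 4 of 10 genes passed the test (limma, Benjamini-Hochberg adjusted p under 0.05), where 16.5% of all tested genes did (9.13% higher, 7.4% lower). In KAT against KPT, Lats2 and Amotl2 were higher and Yap1 and Ankrd1 lower, again 4 of 10, where 28.9% of all tested genes passed (15.6% higher, 13.3% lower). In KPAT against KAT, 0 of the 10 genes passed in limma, edgeR or DESeq2, and 0 had an unadjusted limma p under 0.05, where 0.0481% of all tested genes passed (0.036% higher, 0.012% lower). The median log2 fold change over the 10 genes was 0.14 in KPAT against KPT, 0.13 in KPAT against KAT and 0.15 in KAT against KPT, and over all tested genes it was 0.02, -0.003 and 0.03. The groups did not overlap for 1 of the 10 genes in KPAT against KPT (9.97% of all tested genes), for 0 in KPAT against KAT (2.72%) and for 3 in KAT against KPT (17.6%). With 10 genes, these shares lie within a few genes of the background and say nothing about the set as a whole.

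**Figure D2:**
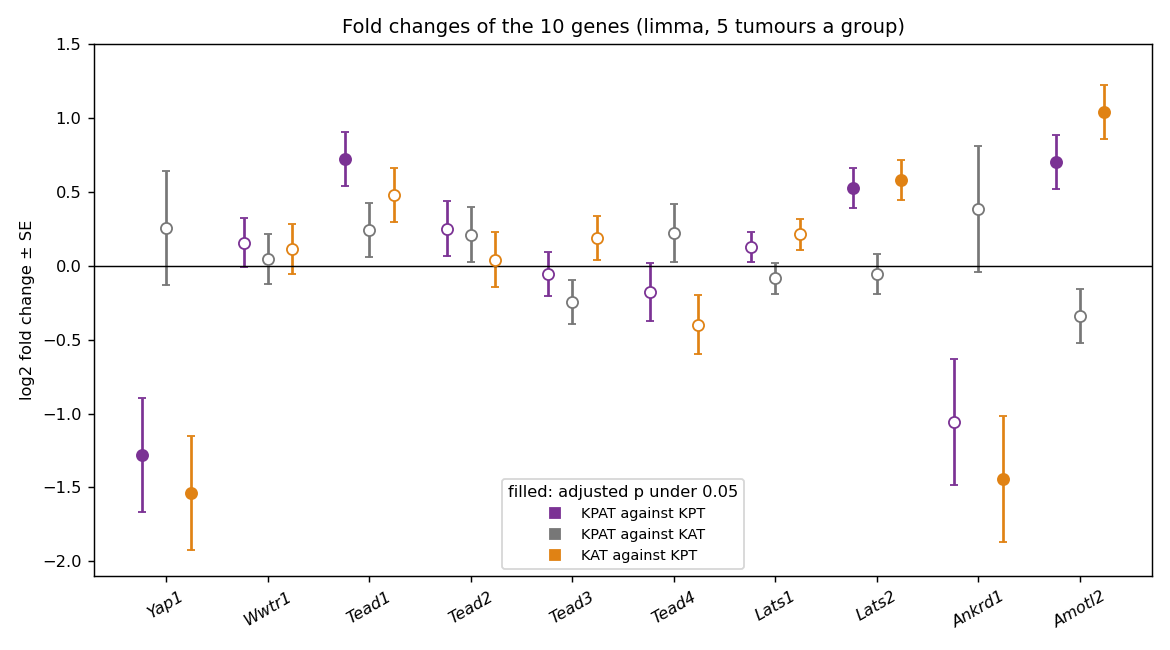
Log2 fold change with its SE (y axis) of each of the 10 genes in KPAT against KPT, KPAT against KAT and KAT against KPT, from limma over 5 tumours a group, filled where the adjusted p is under 0.05. Yap1 and Ankrd1 lie below 0 and Lats2 and Amotl2 above 0 in both comparisons with KPT, and no point of KPAT against KAT is filled.

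Yap1 (ENSMUSG00000053110, chr9:7931999-8004596, minus strand, GRCm38), the co-activator YAP, varied more among KPT tumours than any other of the 10 genes in any group. Its level was 115, 136, 131, 128 and 169.8 deposited units in KPAT tumours 1 to 5 and 113, 118, 112, 110.5 and 110.2 in KAT tumours 1 to 5, against 147, 398, 195, 1157 and 285 in KPT tumours 1 to 5. The KAT tumours lay close together, and every KPT tumour was above every KAT tumour. KPAT 5 was above KPT 1, so KPAT and KPT overlapped. The mean was 136 ± 20.5 in KPAT and 113 ± 3.06 in KAT, against 436 ± 414 in KPT (SD, n = 5 each), where the median was 285. These levels rest on 1908 to 3668 reads per library in KPAT and 2007 to 2540 in KAT, against 2931 to 26272 in KPT.

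Yap1 fell by 1.28 on the log2 scale in KPAT against KPT (SE 0.39, adjusted p = 0.0355) and by 1.54 in KAT against KPT (SE 0.39, adjusted p = 0.00939). Between KPAT and KAT the log2 fold change was 0.26 (SE 0.39, adjusted p = 0.845). Without KPT 4 the log2 fold change was -0.83 in KPAT against KPT (adjusted p = 0.021) and -1.08 in KAT against KPT (adjusted p = 0.00359). The call in KPAT against KPT was lost when KPAT 1 (adjusted p = 0.0643), KPAT 2 (0.0672), KPAT 3 (0.0633), KPAT 4 (0.0602) or KPT 2 (0.0746) was left out, with log2 fold changes between -1.28 and -1.21, and in a fit of only those groups (adjusted p = 0.0833). In KAT against KPT it passed in all 27 alternatives, with log2 fold changes from -1.95 to -1.08.

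Genes beside Yap1 on chromosome 9 were high in the same KPT tumours. These neighbours were chosen after their values were seen, so what follows is a description. In KPT 4, relative to the median of the 10 KPAT and KAT tumours, Yap1 was 9.94-fold, and its neighbours were also high: Tmem123 at 7.5-fold, Birc2 at 6.33-fold, Birc3 at 8.66-fold and Cfap300 at 10.64-fold. Birc2 and Birc3 encode the apoptosis inhibitors cIAP1 and cIAP2, and the block of Yap1, Birc2 and Birc3 is known as a recurrently amplified region in mouse and human tumours. DNA copy number was not tested here. Other genes of the region, near and far, were high in KPT 4 as well, with Alkbh8 at 6.35-fold, Aasdhppt at 8.95-fold and Cep126 at 8.5-fold. Their starts lie at -4.669, -3.695 and 0.13 Mb from that of Yap1. Not every gene nearby was high: the matrix protease genes Mmp7 (0.59-fold) and Mmp12 (0.16-fold) were low in KPT 4, and Arhgap42, at 1.235 Mb, was at 0.72-fold.

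The ratios were smaller in KPT 2 and KPT 5. In KPT 2, Yap1 was 3.42-fold, Dcun1d5 3.2-fold, Tmem123 3.18-fold, Birc2 2.61-fold and Cfap300 6.44-fold, while Alkbh8 was at 1.34-fold and Msantd4 at 0.95-fold. In KPT 5, Yap1 was 2.45-fold and Alkbh8, Aasdhppt and Msantd4 were at 3.03-fold, 2.3-fold and 2.32-fold. Yap1 was 1.68-fold in KPT 3 and 1.26-fold in KPT 1. Of the 30 tested genes within 5 Mb of Yap1, between 0 and 4 were at 2-fold or more in each KPAT or KAT tumour. The number in KPT tumours was 19 in KPT 4 (63.3%), 12 in KPT 5 (40%), 9 in KPT 2 (30%), 4 in KPT 3 and 2 in KPT 1. Among all tested genes that share was 5.62% in KPT 4, 7.51% in KPT 5 and 7.27% in KPT 2. The count of 19 in KPT 4 includes the predicted genes Gm32014 and Gm45494, which reached the minimum level for testing only through that tumour. Gm32014 was at 9.77 deposited units in KPT 4 and at most 0.275 in the other tumours, and Gm45494 at 3.13 and at most 0.914. From 5 to 10 Mb away, the number at 2-fold or more was 2 of 25 genes in KPT 4, 11 in KPT 5 and 6 in KPT 2.

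The remaining 879 tested genes of chromosome 9 lay lower in KPT tumours. On the same scale their median was 0.9-fold to 1.03-fold in the KPAT and KAT tumours, against 0.67-fold, 0.84-fold, 0.69-fold, 0.81-fold and 0.75-fold in KPT tumours 1 to 5. Of the 30 neighbours within 5 Mb, 1 was called higher, 5 lower and 24 were not called in KPAT against KPT, where 9.13% and 7.4% of all tested genes were called higher and lower. The counts in KAT against KPT were 1 higher, 4 lower and 25 not called, beside 15.6% higher and 13.3% lower among all tested genes. The genes called higher were Gria4, a glutamate receptor gene, in KPAT (log2 fold change 2.45, adjusted p = 0.0186) and Mmp3, a matrix protease gene, in KAT (2.38, adjusted p = 0.00569). Of the rest, Dcun1d5, Tmem123, Birc2, Birc3 and Cfap300 were lower in KPAT than in KPT, with log2 fold changes of -0.86, -1.54, -1.30, -1.44 and -2.04. Dcun1d5 passed with an adjusted p of 0.0392 and lost the call when any of 9 single tumours was left out, most so without KPT 2 (log2 fold change -0.70, adjusted p = 0.0957), and with the replicate block (adjusted p = 0.0575) and in a fit of only those groups (0.0912). In KAT against KPT, Dcun1d5, Tmem123, Birc2 and Cfap300 were lower, and Birc3 had a log2 fold change of -0.999 (SE 0.37, adjusted p = 0.0531). Lower calls were not confined to this 5 Mb window. Among the genes counted above farther than 5 Mb away, Maml2, Mtmr2, Cep57, Fam76b, Cwc15 and Mre11a were called lower in both comparisons with KPT. Their log2 fold changes ran from -0.853 (Cwc15) to -0.497 (Maml2) in KPAT and from -1.016 to -0.435 in KAT. Vstm5, Taf1d and Gm5611 were called lower in KAT only, and Fat3 was called higher in both. The others there were not called.

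**Figure D3:**
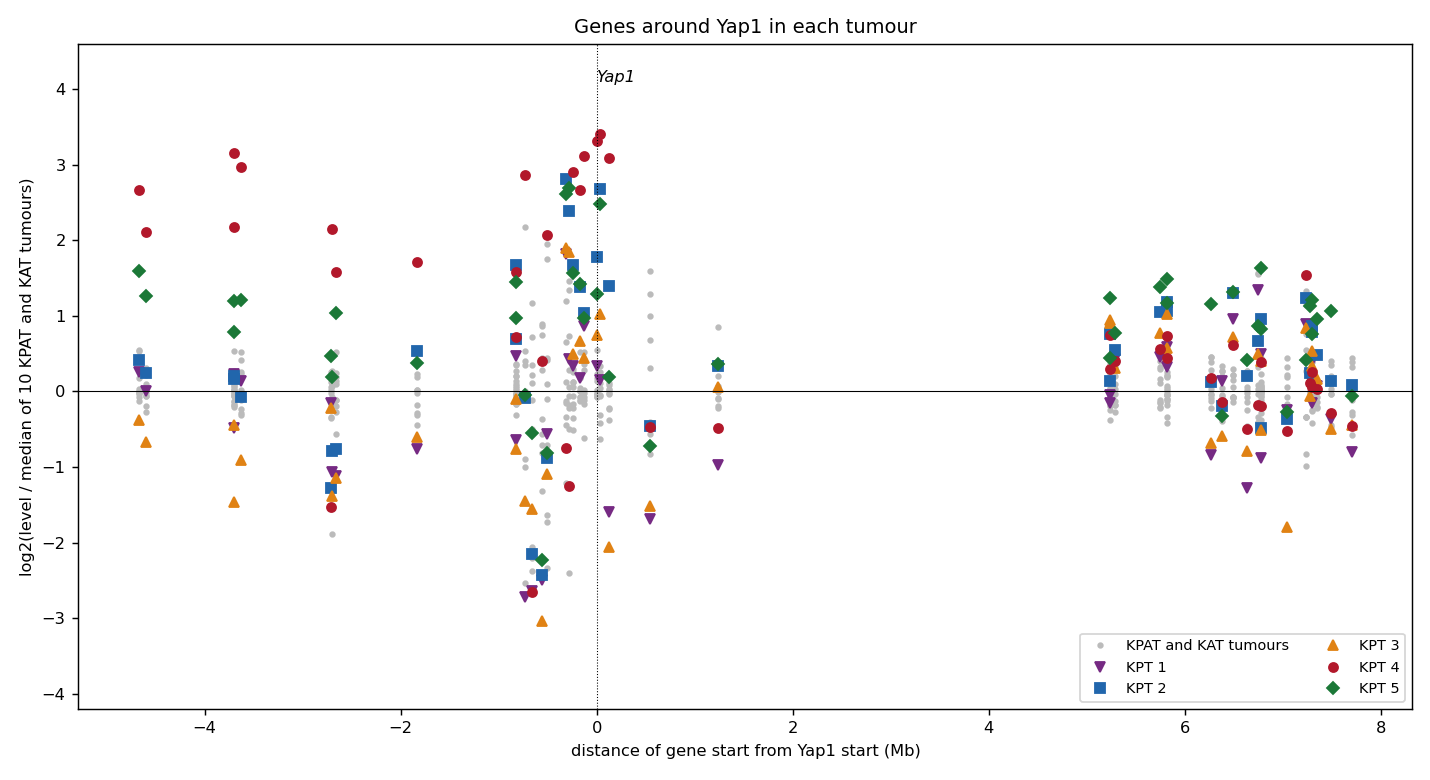
Log2 of the level over the median of the 10 KPAT and KAT tumours (y axis) for 46 genes with a median of at least 3 deposited units, by distance of the gene start from the Yap1 start in Mb (x axis). The KPAT and KAT tumours are grey dots, and each KPT tumour has its own colour and symbol. At Yap1 itself KPT 4 is the highest, at 9.94-fold.

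The genes whose level followed Yap1 most closely over the 15 tumours were Birc2 (Pearson r = 0.937), Tmem123 (0.922), Cfap300 (0.905), Prmt6 (0.875) and Aasdhppt (0.872), among 11197 candidate genes. All but Prmt6, on chromosome 3, lie near Yap1. The corresponding Spearman values were 0.368, 0.468, 0.464, 0.696 and 0.689. The points share the library's depth, and KPT 4 lies far from the other tumours. Candidates needed a mean of at least 100 reads, which Cfap300 reached only through the KPT tumours. It was at 2.13 to 4.23 deposited units in the KPAT and KAT tumours, against 3.71 to 35.8 in the KPT tumours, so its place rests partly on that minimum.

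Wwtr1 (ENSMUSG00000027803, chr3:57455649-57575910, minus strand), which encodes TAZ, the other co-activator, did not pass the test in any comparison. It was at 83.8, 119, 124, 125 and 116 deposited units in KPAT tumours 1 to 5 and 84.6, 117, 136, 109.8 and 104 in KAT tumours 1 to 5, against 73.6, 136, 95.0, 110.0 and 99.3 in KPT tumours 1 to 5. The groups overlapped over most of their ranges. The log2 fold change was 0.16 in KPAT against KPT (SE 0.17, adjusted p = 0.548), 0.05 in KPAT against KAT (SE 0.17, adjusted p = 0.943) and 0.11 in KAT against KPT (SE 0.17, adjusted p = 0.642). Genes most like Wwtr1 over the 15 tumours were Myo5a (Pearson r = 0.848, Spearman rho = 0.839), Map2k5 (0.822 and 0.839), Neo1 (0.811 and 0.857), Jmy (0.792 and 0.707) and Dpy19l1 (0.784 and 0.757). Jmy is on chromosome 13 and the other 4 are on chromosome 9, the chromosome with the low median in KPT tumours.

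Per kilobase of exon, which allows levels of different genes to be set side by side, Wwtr1 stood above Yap1 in the KPAT and KAT tumours and below it in the KPT tumours. The length is the union of all annotated exons of a gene, which can exceed the transcript expressed. The order of genes per kb, and where a ratio crosses 1, depend on this length. Yap1 was at 14.7 ± 2.21 deposited units per kb in KPAT and 12.2 ± 0.331 in KAT, against 47.1 ± 44.7 in KPT (SD, n = 5 each). Wwtr1 was at 23.8 ± 3.58 in KPAT and 23.1 ± 3.88 in KAT, against 21.5 ± 4.80 in KPT. The ratio of Yap1 to Wwtr1 per kb was 0.707, 0.591, 0.547, 0.527 and 0.754 in KPAT tumours 1 to 5 and 0.692, 0.521, 0.428, 0.520 and 0.545 in KAT tumours 1 to 5, against 1.03, 1.51, 1.06, 5.43 and 1.48 in KPT tumours 1 to 5. Every KPT tumour had a ratio above 1 and every KPAT and KAT tumour one below it.

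**Figure D4:**
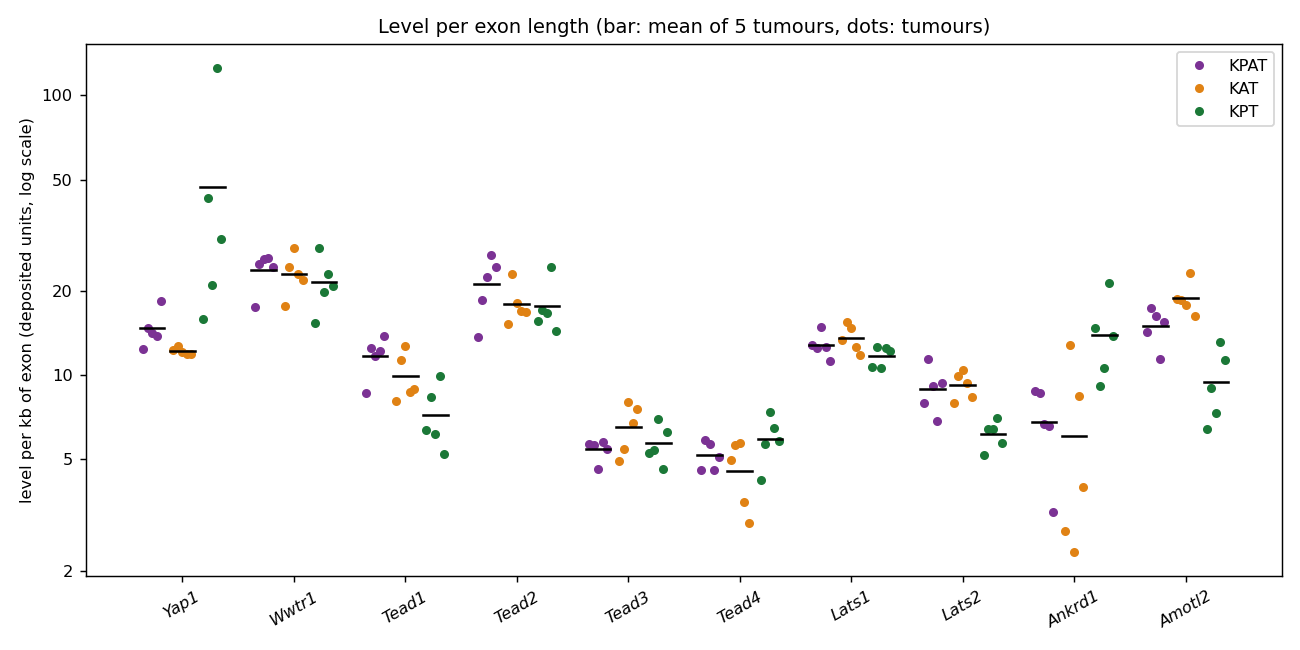
Level per kb of exon (y axis, deposited units per kb, log scale) of the 10 genes in KPAT, KAT and KPT tumours, with 1 dot per tumour and a bar at the mean of 5. Wwtr1 and Tead2 have mean levels between 17.6 and 23.8 in all 3 groups, and Yap1 lies between 11.9 and 18.3 in the KPAT and KAT tumours and between 15.9 and 125 in the KPT tumours.

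The TEAD genes encode the DNA-binding partners of YAP and TAZ. Tead1 (ENSMUSG00000055320, chr7:112679318-112906807) was at 117, 169, 159, 165 and 186 deposited units in KPAT tumours 1 to 5 and 110.0, 153, 172, 118 and 121 in KAT tumours 1 to 5, against 86.4, 114, 83.8, 135 and 70.7 in KPT tumours 1 to 5. Of the KPAT tumours, 4 were above every KPT tumour, and KPAT 1 fell between KPT 2 and KPT 4. Tead1 rose in KPAT against KPT, with a log2 fold change of 0.72 (SE 0.18, adjusted p = 0.0169), and passed in all 27 alternatives (0.62 to 0.85). The log2 fold change was 0.48 in KAT against KPT (SE 0.18, adjusted p = 0.0612) and 0.24 in KPAT against KAT (SE 0.18, adjusted p = 0.66). In KAT against KPT, Tead1 passed under quantile scaling (0.59, adjusted p = 0.0184), without KPT 4 (0.61, adjusted p = 0.0208) and without KPAT 1 (0.48, adjusted p = 0.0497).

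None of the other TEAD genes passed in any comparison. Tead2 (chr7:45215753-45233644) was at 65.3, 89.0, 108, 129 and 116 deposited units in KPAT tumours 1 to 5 and 72.8, 110.1, 86.4, 81.3 and 80.8 in KAT tumours 1 to 5, against 74.8, 82.1, 79.9, 116 and 69.0 in KPT tumours 1 to 5. KPT 4, the tumour with the highest Yap1, was the highest of the KPT tumours for Tead2 too. The log2 fold changes of Tead2 were 0.25 in KPAT against KPT (adjusted p = 0.369), 0.21 in KPAT against KAT (adjusted p = 0.705) and 0.04 in KAT against KPT (adjusted p = 0.888). Tead3 (chr17:28331671-28350817) ranged from 31.1 to 38.8 in KPAT and 33.1 to 53.6 in KAT, against 30.9 to 46.8 in KPT, and its log2 fold changes were -0.06, -0.25 and 0.19 in the same order (adjusted p = 0.82, 0.564 and 0.362). Tead4 (chr6:128224288-128300823), the TEAD gene with the fewest reads (194 to 570 per library), ranged from 16.4 to 21.1 in KPAT and 10.7 to 20.6 in KAT, against 15.2 to 26.6 in KPT. Its log2 fold changes were -0.18, 0.22 and -0.40 (adjusted p = 0.571, 0.715 and 0.143). With array weights, Tead4 was called lower in KAT against KPT (-0.64, adjusted p = 0.0203).

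Set side by side per kb, Tead2 gave the largest share of the summed TEAD level in every tumour. This order rests on the exon lengths, 13570 bases for Tead1 and 4788 for Tead2. In deposited units, before division by length, Tead1 was above Tead2 in every tumour. The Tead2 share per kb is given first. The share was 48.1% ± 5.18 in KPAT and 46.2% ± 3.65 in KAT, against 48.1% ± 3.61 in KPT (SD, n = 5 each). The Tead1 share was 26.98% ± 1.84 in KPAT and 25.3% ± 1.83 in KAT, against 19.6% ± 2.99 in KPT. Over tumours the Tead1 share ran from 24.6% to 29.3% in KPAT and 24.2% to 28.6% in KAT, against 16.4% to 22.9% in KPT, so the KPT tumours lay below all others. Tead4 gave 12.1% ± 2.13 in KPAT and 11.6% ± 2.68 in KAT, against 16.3% ± 2.72 in KPT, and Tead3 gave 12.8% ± 2.80, 16.9% ± 3.45 and 16.0% ± 3.80 in KPAT, KAT and KPT. The summed TEAD level was 43.5 ± 6.79 deposited units per kb in KPAT and 39.0 ± 5.48 in KAT, against 36.45 ± 5.63 in KPT, with overlapping ranges. These shares and sums are descriptions, with no test of their own.

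Among the kinases that restrain YAP and TAZ, Lats2 differed between the groups and Lats1 did not pass the test. Lats2 (ENSMUSG00000021959, chr14:57689662-57758388), itself a YAP/TAZ target, was at 55.4, 79.3, 63.9, 47.9 and 65.2 deposited units in KPAT tumours 1 to 5 and 55.4, 69.1, 72.5, 65.4 and 58.4 in KAT tumours 1 to 5, against 36.1, 44.6, 44.9, 49.0 and 40.0 in KPT tumours 1 to 5. All KAT tumours were above all KPT tumours, and of the KPAT tumours only KPAT 4 fell below the highest KPT tumour. Lats2 rose by 0.525 on the log2 scale in KPAT against KPT (SE 0.14, adjusted p = 0.0182) and by 0.58 in KAT against KPT (SE 0.14, adjusted p = 0.00625). It passed in all 27 alternatives in both comparisons. In KPAT against KAT the log2 fold change was -0.055 (SE 0.14, adjusted p = 0.916). The predicted gene Gm49361, on the same strand, shares 42.4% of the exon bases of Lats2 in the annotation and has no row in the table, so how reads in the shared part were assigned is not known.

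Lats1 (ENSMUSG00000040021, chr10:7681214-7716460) was at 93.4, 91.4, 108, 92.3 and 81.8 deposited units in KPAT tumours 1 to 5 and 97.4, 113, 108, 92.3 and 86.2 in KAT tumours 1 to 5, against 78.1, 92.3, 77.4, 90.9 and 89.0 in KPT tumours 1 to 5. The groups overlapped, and the log2 fold change was 0.13 in KPAT against KPT (SE 0.10, adjusted p = 0.425), -0.09 in KPAT against KAT (SE 0.10, adjusted p = 0.796) and 0.21 in KAT against KPT (SE 0.10, adjusted p = 0.133). Under quantile scaling it passed in KAT against KPT (0.30, adjusted p = 0.0294). Per kb, Lats1 exceeded Lats2 in every tumour, by a ratio of 1.47 ± 0.311 in KPAT and 1.48 ± 0.134 in KAT, against 1.92 ± 0.202 in KPT (SD, n = 5 each). The Lats2 length used here includes the 42.4% of exon bases shared with Gm49361. If reads there were not assigned to Lats2, its level per kb is understated, so the order of these genes is not settled.

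The target genes Ankrd1 and Amotl2, whose promoters are printed above, had fold changes of opposite sign against KPT. Amotl2 (ENSMUSG00000032531, chr9:102716672-102733418) encodes angiomotin-like 2, a junction protein that binds YAP and activates LATS. It was at 89.4, 109.6, 102, 72.0 and 97.6 deposited units in KPAT tumours 1 to 5 and 118, 117, 112, 146 and 102 in KAT tumours 1 to 5, against 40.3, 56.4, 46.2, 82.8 and 71.3 in KPT tumours 1 to 5. Every KAT tumour was above every KPT tumour, and KPAT 4 alone among the KPAT tumours lay below the highest KPT tumour, KPT 4. The gene rose by 0.70 on the log2 scale in KPAT against KPT (SE 0.18, adjusted p = 0.0186) and by 1.04 in KAT against KPT (SE 0.18, adjusted p = 0.0012). Without KPAT 2 the first of these was 0.64, with an adjusted p of 0.0503. Between KPAT and KAT the log2 fold change was -0.34 (SE 0.18, adjusted p = 0.515).

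Amotl2 lies on chromosome 9, where genes as a whole were higher in KPAT and KAT than in KPT. The median log2 fold change over the 935 tested genes of that chromosome was 0.36 in KPAT against KPT and 0.42 in KAT against KPT, and 22% and 31.4% of them were called higher. On the other autosomes the medians lay between -0.19 and 0.14. Amotl2 was above the median of its chromosome in both comparisons, and what the chromosome contributes to its fold change was not tested. The summed fibroblast and macrophage markers also had higher medians in KPAT and KAT than in KPT. Whether they vary with Amotl2 from tumour to tumour was not tested.

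Ankrd1 (ENSMUSG00000024803, chr19:36111961-36120099) encodes a nuclear cofactor also called CARP, known from heart and skeletal muscle and widely used as a YAP readout. It was at 25.4, 24.9, 19.2, 18.9 and 9.37 deposited units in KPAT tumours 1 to 5 and 8.01, 37.0, 6.74, 24.4 and 11.5 in KAT tumours 1 to 5, against 42.5, 26.4, 30.7, 61.8 and 39.7 in KPT tumours 1 to 5. Every KPAT tumour was below every KPT tumour, while KAT 2 was above KPT 2 and KPT 3. The log2 fold change was -1.06 in KPAT against KPT (SE 0.43, adjusted p = 0.102), -1.44 in KAT against KPT (SE 0.43, adjusted p = 0.021) and 0.39 in KPAT against KAT (SE 0.43, adjusted p = 0.777). Ankrd1 thus passed in KAT against KPT and not in KPAT against KPT, and the direct contrast of KPAT with KAT did not pass. Its call in KAT against KPT was lost without KAT 1 (-1.24, adjusted p = 0.0505), without KAT 3 (-1.18, adjusted p = 0.0557) and in edgeR (-1.18, adjusted p = 0.0524). In a fit of KPAT and KPT alone, Ankrd1 passed (adjusted p = 0.0441).

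KPT 4, the tumour with the highest Yap1, also had the highest Ankrd1 level of the 15 tumours. The other KPT tumours did not keep the same order for these genes. KPT 1, the lowest KPT tumour for Yap1, had rank 2 of 15 for Ankrd1. KPT 2, with rank 2 for Yap1, was the lowest KPT tumour for Ankrd1, with rank 6. Markers of striated muscle, the tissue in which Ankrd1 is best known, summed to 4.34 to 8.32 deposited units in KPAT and 5.99 to 12.98 in KAT, against 4.54 to 9.03 in KPT, over the 10 of 12 listed markers in the table. The sum was thus near 0 and overlapped between the groups, and the muscle creatine kinase gene Ckm was at 0 in 10 of the 15 tumours. Of the 7 muscle markers tested, 6 were not called in KAT against KPT, where 28.9% of all tested genes were called. The median log2 fold change of the 7 was 0.379. Acta1 (-1.30, adjusted p = 0.357) and Mylpf had the sign of Ankrd1, and the others had the opposite sign. Mylpf, a fast-muscle myosin light chain gene, was called lower in KAT against KPT (log2 fold change -1.25, adjusted p = 0.0302), the direction of Ankrd1. Mylpf was at 0.537 to 1.01 deposited units in KPAT and 0.220 to 1.17 in KAT, against 1.11 to 1.85 in KPT, which is 4 to 34 reads per library. Its call was lost when KAT 2, KAT 5, KPT 1, KPT 2 or KPT 3 was left out, most so without KAT 5 (-0.95, adjusted p = 0.0751). In KPAT against KPT it had -1.05 (adjusted p = 0.0857), with no overlap. The part of muscle RNA in the Ankrd1 difference was not tested.

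The wider pathway was described with lists whose genes were chosen with earlier results of these data known. Upstream, Stk4 (MST1) rose in both comparisons with KPT, by 0.41 on the log2 scale in KPAT (SE 0.10, adjusted p = 0.0137) and by 0.38 in KAT (SE 0.10, adjusted p = 0.0116). It was at 63.7, 67.0, 70.9, 61.3 and 79.0 deposited units in KPAT tumours 1 to 5 and 60.7, 71.2, 66.1, 69.3 and 66.0 in KAT tumours 1 to 5, against 49.3, 43.5, 53.0, 57.9 and 53.0 in KPT tumours 1 to 5, with no overlap. Of the 15 genes of the kinase cassette, which holds the MST, SAV1 and MOB1 proteins and the TAO and MAP4K kinases that can activate LATS, 1 was higher, 1 lower and 13 were not called in each comparison with KPT. Among all tested genes 16.5% were called in KPAT and 28.9% in KAT, so 2 of 15 is no more than the background. The gene that fell in KPAT was the kinase Taok3 (log2 fold change -0.54, SE 0.17, adjusted p = 0.0441), a call lost when any of 13 single tumours was left out, most so without KPAT 3 (-0.495, adjusted p = 0.095), and in 6 other alternatives, edgeR among them (-0.475, adjusted p = 0.0751). The gene that fell in KAT was Mob1b, a co-activator of LATS (-0.41, SE 0.11, adjusted p = 0.0152).

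Among 19 upstream regulators, 3 were higher, 2 lower and 14 not called in KPAT against KPT, and 5 were higher, 2 lower and 12 not called in KAT against KPT. Over all tested genes 9.13% were higher and 7.4% lower in KPAT, and 15.6% higher and 13.3% lower in KAT, so the counts lie within a few genes of the background. Crb3, an apical polarity protein of epithelial cells, fell by 0.62 in KPAT (SE 0.12, adjusted p = 0.00461) and by 0.73 in KAT (SE 0.12, adjusted p = 0.000666). Wwc1, which encodes KIBRA, an activator of the pathway, fell by 0.73 in KPAT (SE 0.15, adjusted p = 0.0061) and by 0.605 in KAT (SE 0.15, adjusted p = 0.00729). Neither gene overlapped between KPT and the other groups. Of the 12 epithelial markers, 3 were called lower in KPAT and 5 in KAT. The cadherin genes Dchs1 (1.09 and 1.61, adjusted p = 0.0152 and 0.00094) and Fat4 (1.74 and 1.61, adjusted p = 0.0359 and 0.033) were higher in KPAT and KAT, and so was Limd1, which encodes a LIM-domain protein that binds LATS (0.77 and 0.90, adjusted p = 0.00282 and 0.000344). Limd1 lies on chromosome 9, with its higher median. In KAT against KPT, Frmd6 (0.76, adjusted p = 0.0258) and Dchs2 (1.66, adjusted p = 0.0491) also passed. Leaving out single tumours ended the calls of Fat4 in KPAT (7 of 15 tumours, most so without KPAT 5, 1.64, adjusted p = 0.0737) and in KAT (5 of 15, without KAT 3, 1.49, adjusted p = 0.0724), of Frmd6 (4 of 15, without KPT 1, 0.65, adjusted p = 0.0655) and of Dchs2 (10 of 15, without KPT 3, 1.30, adjusted p = 0.117). The Fat4 calls were also lost in edgeR (1.27 in KPAT, adjusted p = 0.0987, and 1.17 in KAT, adjusted p = 0.0935), under quantile scaling (1.51, adjusted p = 0.0586, and 1.24, adjusted p = 0.0818) and in fits of only those groups (adjusted p = 0.0786 and 0.0737). In KAT the call was lost in DESeq2 too (1.15, adjusted p = 0.0548). Dchs2 was lost under quantile scaling (1.23, adjusted p = 0.13), with a pseudocount of 0.5 (adjusted p = 0.0515), with no minimum level (0.0537) and with the replicate block (0.0848).

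VGLL proteins also bind TEAD and compete with or act beside YAP. Vgll3 was at 14.6, 19.6, 5.88, 7.65 and 9.31 deposited units in KPAT tumours 1 to 5 and 7.26, 12.2, 17.1, 19.6 and 19.9 in KAT tumours 1 to 5, against 4.76, 6.01, 2.65, 3.39 and 7.40 in KPT tumours 1 to 5. It rose by 1.19 on the log2 scale in KPAT (SE 0.38, adjusted p = 0.0429) and by 1.645 in KAT (SE 0.38, adjusted p = 0.00555), each against KPT, and the groups overlapped. The call in KPAT was lost when any of 10 single tumours was left out, most so without KPAT 2 (0.96, adjusted p = 0.111), under quantile scaling (1.02, adjusted p = 0.0682), in a fit of only those groups (adjusted p = 0.0646) and with the replicate block (0.0585). The summed fibroblast markers were also higher in KPAT and KAT than in KPT, and whether they vary with Vgll3 from tumour to tumour was not tested. Vgll4 was not called, and Vgll1 and Vgll2 are not analysed here.

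Of the 22 YAP/TAZ target genes, including Ankrd1, Amotl2 and Lats2, 3 were higher, 0 lower and 19 not called in KPAT against KPT, and 6 were higher, 1 lower and 15 not called in KAT against KPT. Those are 3 and 7 of 22 genes, beside 16.5% and 28.9% of all tested genes called in either direction, so the counts are near the background. The median log2 fold change of the list was 0.36 in KPAT and 0.42 in KAT against KPT, beside medians of 0.02 and 0.03 over all tested genes. Without the 3 genes already described, the list's medians were 0.22 and 0.32, with 1 and 4 of 19 genes called higher. Of the widely used target genes, Amotl2 passed in both comparisons with KPT and Ankrd1 in KAT against KPT, while Ccn1 and Ccn2, picked after their values were seen, did not. Ccn2, a secreted matrix protein gene, was at 800.4, 479, 1183, 596 and 345 deposited units in KPAT tumours 1 to 5 and 790.2, 1077, 1116, 487 and 400.3 in KAT tumours 1 to 5, against 412, 831, 470.5, 581 and 676 in KPT tumours 1 to 5. Its log2 fold change was 0.11 in KPAT against KPT (adjusted p = 0.854) and 0.31 in KAT against KPT (adjusted p = 0.524). Ccn1, its relative, had -0.26 (adjusted p = 0.699) and 0.03 (adjusted p = 0.958). Tgfb2, a TGF-beta ligand gene, rose by 0.94 in KPAT (SE 0.29, adjusted p = 0.0407) and by 1.501 in KAT (SE 0.29, adjusted p = 0.00229). Igfbp3 (0.86, adjusted p = 0.0486), Ccdc80 (1.28, adjusted p = 0.0331) and Rbms3 (1.10, adjusted p = 0.0234), which stromal cells can express, passed in KAT against KPT. In KPAT against KPT their log2 fold changes were 0.50, 0.72 and 0.615 (adjusted p = 0.287, 0.247 and 0.215). The summed fibroblast markers were higher in both KPAT and KAT than in KPT. The part of stromal cells in these calls was not tested. Rbms3 lies on chromosome 9, like Amotl2.

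Several of these calls did not hold when 1 tumour was left out. That of Tgfb2 in KPAT was lost for 7 of 15 left-out tumours (most so without KPAT 3, 0.80, adjusted p = 0.0971), that of Igfbp3 for 12 (without KAT 5, 0.65, adjusted p = 0.123), that of Ccdc80 for 5 (without KPT 3, 0.996, adjusted p = 0.0816) and that of Rbms3 for 4 (without KAT 5, 0.91, adjusted p = 0.0627). The Tgfb2 call was also lost under quantile scaling (0.805, adjusted p = 0.0746), with array weights (0.98, adjusted p = 0.063) and with the replicate block (adjusted p = 0.0686). That of Igfbp3 was lost in 5 other alternatives, edgeR among them (0.855, adjusted p = 0.0539). In KPAT against KAT, 0 genes of the kinase, upstream, VGLL and target lists passed in limma. Within the KPT group, KPT 4, which had the highest Yap1, was the highest of the 5 tumours for 8 of the 22 targets (Ankrd1, Amotl2, Lats2, Axl, Crim1, Fjx1, Foxf2 and Dock5). KPT 2 was the highest for 7 (Ccn1, Ccn2, Myof, Asap1, Igfbp3, Gadd45a and Nt5e), KPT 5 for 5, KPT 3 for 2 and KPT 1 for 0. The same share over all tested genes was not computed, so these counts have no background beside them. KPT 4 was the highest of the 15 tumours for 2 of the 22 targets, Ankrd1 and Crim1, and its median rank over the targets was 7 of 15. The median rank was 12 in KPT 1, 6.5 in KPT 2, 12 in KPT 3 and 10.5 in KPT 5.

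**Figure D5:**
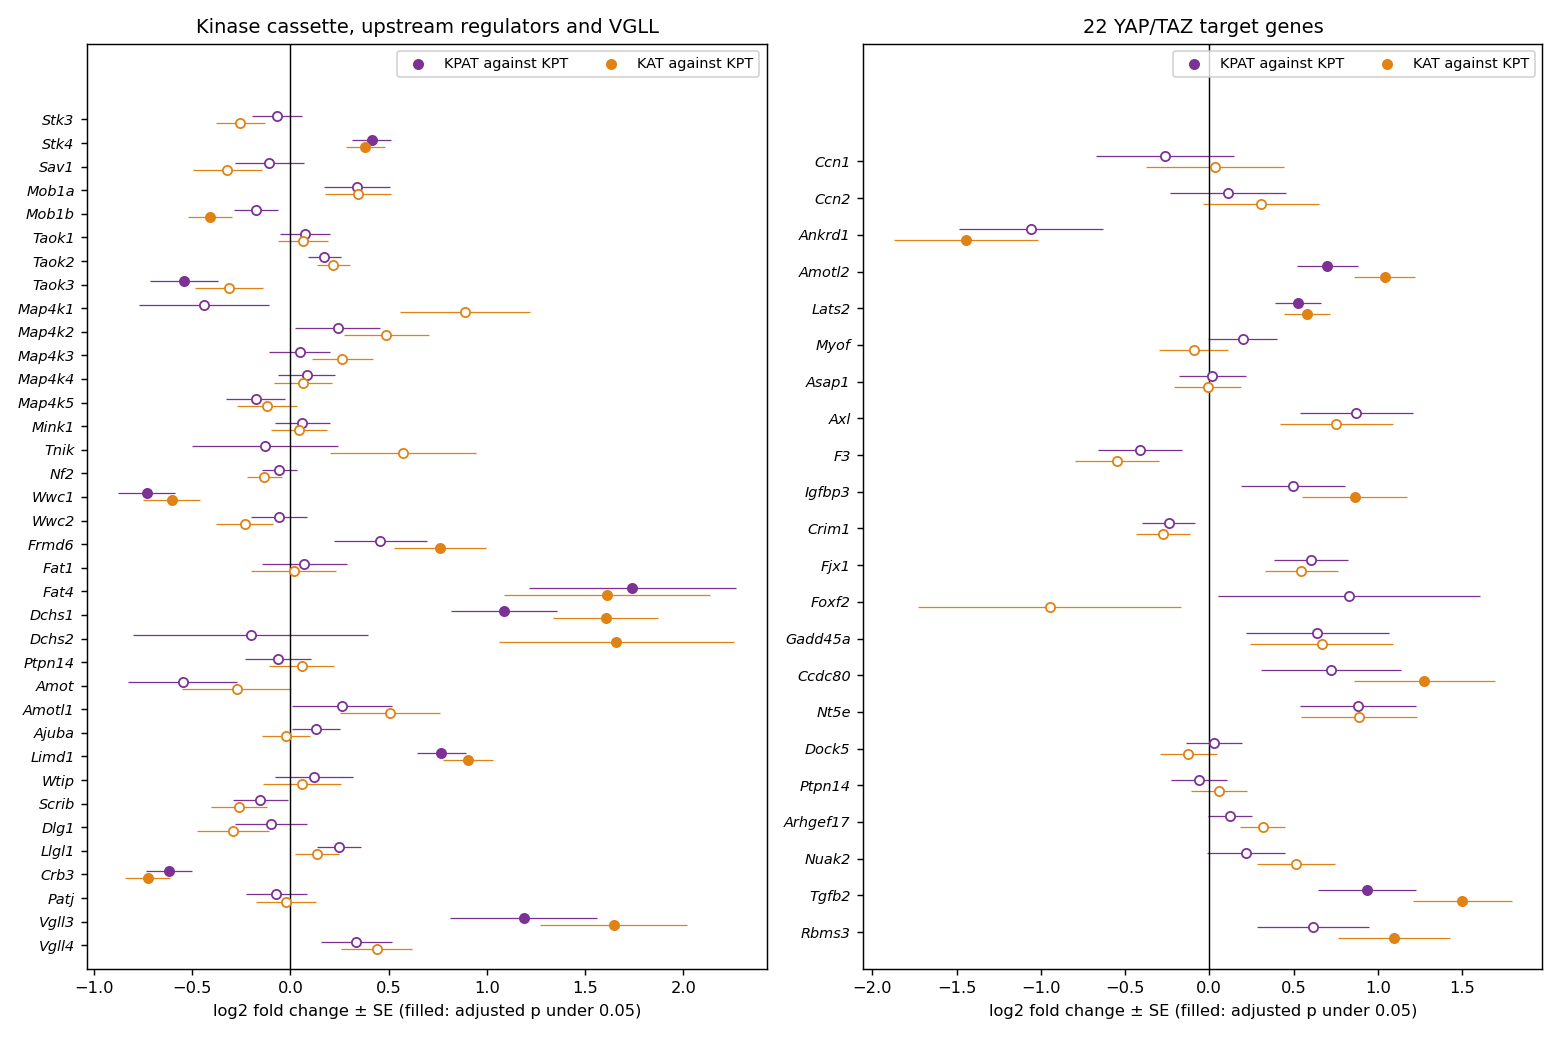
Log2 fold change with its SE (x axis) in KPAT against KPT and KAT against KPT for the genes of the kinase cassette, upstream regulators and VGLL genes (left) and for 22 YAP/TAZ target genes (right), filled where the adjusted p is under 0.05. Limd1, Dchs1 and Stk4 lie above 0 and Crb3 and Wwc1 below 0 in both comparisons, and of the targets only Ankrd1, in KAT against KPT, is filled below 0.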

How the data were processed

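Per the labels' protocols, RNA was prepared with the RNeasy midi kit and sequenced on a HiSeq4000 from TruSeq RNA libraries. The submitters' processing notes name HISAT2 2.0.4 and GRCm38 (mm10). How reads were counted (tool, strand, overlapping genes) and normalized is not given in the sources used here. Values in the deposited table are of the unit signal, that is, whole reads divided by 1 factor per library, judged from the values: 100% fell within 0.01 of a whole number once multiplied back. The design assumed values on the scale of reads, so 1 multiplier, 19.478 (reads per deposited unit, as a geometric mean over libraries), was applied throughout, which leaves the authors' scaling as it is.

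The log2(value + 1) of genes with a mean of at least 10 was fitted over all 15 libraries with limma 3.58.1 in R 4.3.3 (1 mean per group, moderated with a mean-variance trend, two-sided tests, Benjamini-Hochberg adjustment over 16648 genes at 0.05). A fold change on this scale understates the change of low genes. The model was tested on simulated data first. Alternatives were a pseudocount of 0.5 or 8, a minimum mean of 50 or none, the deposited scale, median-of-ratios and quantile scaling, fits of only 2 groups, array weights, the replicate block, leaving out each tumour, and edgeR 4.0.16 and DESeq2 1.42.0 on the recovered reads. Symbols (20574 of 20636 gene IDs) and exon lengths came from GENCODE M21 for GRCm38, and promoter sequences from RefSeq. Tables and plots were made in Python 3.11.15. The members and lists were chosen with earlier results of these data known. Named genes are the 10 members, any gene of the pathway lists that passed in a comparison, and the 5 genes most like Yap1 and Wwtr1 with a mean of at least 100 reads, leaving out predicted genes and pseudogenes. Ccn1, Ccn2, Crim1, Vgll4, Mylpf, Acta1, the targets named for KPT 4 and KPT 2, the promoter matches named and the genes around Yap1 were named outside that rule, after their values were seen. A part of the genotype that all groups share is not reported here.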

Additional observations from a re-analysis of the deposited data

Results flagged for a closer look

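Of the 30 sets of 5 tumours screened, 1 for each of the 10 genes in each group, 3 held a tumour whose gap to its nearest neighbour, divided by the range of the set, was above Dixon's critical value of 0.71. Chance alone flags about 1 in 20 such sets. Yap1 was at 1157 deposited units in KPT 4, against 147 to 398 in the other KPT tumours. Tead2 was at 116.4 in KPT 4, above the other KPT tumours (69.0 to 82.1). Wwtr1 was at 83.8 in KPAT 1, below the other KPAT tumours (116 to 125).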

How the results depend on the processing

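The 3 counts of called genes were 2752 (KPAT against KPT), 8 (KPAT against KAT) and 4805 (KAT against KPT). Fitting only the groups compared gave 1811 in KPAT against KPT and 15 in KPAT against KAT. In KPAT against KAT, quantile scaling gave 17, array weights 515 and DESeq2 284. Leaving out 1 tumour gave 1686 (without KPAT 2) to 2896 in KPAT against KPT, 7 to 36 (without KAT 2) in KPAT against KAT and 3553 to 4836 in KAT against KPT. The causes were not tested, and the fits of fewer groups or tumours use fewer samples. Tumours with the same number did not vary together (correlations from -0.209 to 0.246, with 5 of 15 over 0.1), and the replicate block gave 2248, 7 and 4313 called genes. Each tumour was also searched against the 5 tumours of each other group. In 7 of 30 such searches the closest tumour bore the same number.

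Over 65 results with 27 alternatives each, or 26 for the 3 whose gene (Dchs2, Gria4 or Mylpf) falls below the minimum mean of 50, 1607 of 1752 values kept their direction and side of the threshold, 132 lost the call, 6 gained it and 7 changed sign. The sign changes concern uncalled genes, given here as the range of log2 fold changes over the tumours left out in turn. In KPAT against KPT, Tead3 ran from -0.132 to 0.017 (without KPT 3). In KPAT against KAT, Wwtr1 ran from -0.046 (without KAT 1) to 0.152 and Lats2 from -0.147 to 0.035 (without KPAT 4). In KAT against KPT, Wwtr1 ran from -0.002 (without KPT 1) to 0.221 and Tead2 from -0.05 (without KAT 2) to 0.163, with -0.026 without KPT 5 and -0.034 under array weights. Calls of the 10 genes that were lost or gained are named with the gene above. Of the 10 genes Ankrd1 and Tead4 have the fewest reads (129 to 1404 and 194 to 570 per library), and counting error weighs most on them.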
